A study of Mus musculus with 14 samples.

Results

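The genes described here write, erase and read methylation of cytosine in DNA: the methyltransferases Dnmt1, Dnmt3a and Dnmt3b, the TET dioxygenases Tet1, Tet2 and Tet3, and the methyl-CpG-binding-domain genes Mbd1, Mbd2 and Mbd3. These 9 genes were chosen by name, out of 20022 genes with a symbol on the array. A probe was matched to 8 of the 9 through its transcript identifier, and Tet1 was not analysed here. The 8 genes had 16 probes, of which 14 were bright enough to test.

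RNA of blood leukocytes was hybridised to 14 one-colour mouse arrays, 1 per mouse. The 8 SS mice (4 labelled male, 4 labelled female) had met a hostile, adverse social environment in postnatal week 3, and the 6 SI mice (4 labelled male, 2 labelled female) had been kept in social isolation in that week. Mice of both groups were conditioned to a place with an under-threshold dose of 5 mg/kg cocaine, passed through extinction and withdrawal, and were bled from the sub-mandibular vein 24 hours later. No unstressed mouse and no mouse without cocaine was among the arrays, so each difference below is SS minus SI, and the strain and age of the mice were not stated in the labels. The cells are labelled PBMC, but they were prepared by red cell lysis, and markers of neutrophils (11 of 11 tested), platelets (13 of 13) and erythroid cells (6 of 7) were well above background on all arrays.

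In mammals Dnmt1 copies methylation onto the new strand after replication, while Dnmt3a and Dnmt3b place it at unmethylated sites. TET enzymes oxidise 5-methylcytosine, which opens the way to its removal, and loss of Tet2 or Dnmt3a is known for expanding clones of blood cells. Proteins of the MBD family recruit repressors to methylated CpG pairs. Mbd2 and Mbd3 are alternative subunits of NuRD, a complex that remodels nucleosomes and removes acetyl groups from histones, and mammalian Mbd3 binds methylated DNA only weakly.

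Values are given as scaled log2 signal: the log2 processed signal of a probe minus the 75th percentile of its array, taken over 14522 probes measured above background on each of the 14 arrays. A value of 0 is therefore a probe as bright as that percentile, and a difference of 1 is a doubling. Levels of different probes are not comparable with each other. Where a gene has several tested probes, the brightest represents it and the others are called its other probe. P-values come from limma (two-sided) with Benjamini-Hochberg adjustment across 24033 tested probes; a gene is said to have risen or fallen where the adjusted p is under 0.05.

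Several facts about the arrays bear on all results. Each slide holds mice of a single sex label, and no term can part the label from the slide. The Y-linked genes Eif2s3y and Ddx3y were well above background on 6 of 6 labelled female arrays and on 0 of 8 labelled male arrays, which goes against the sex labels, and the words labelled male and labelled female are used for that reason. SS mice lie in array columns 3 and 4 and SI mice in columns 1 and 2, so group and column cannot be told apart. SI labelled male mouse 4 stood apart: it correlated with the other arrays of its group at 0.833 to 0.896, and these correlated with each other at 0.969 to 0.972.

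Mbd2 rose in SS mice, and it was the 1 of 8 genes of the set that passed in all mice. Its level was 1.54 times that of SI mice by its brightest probe and 1.6 times by the other. The remaining 7 genes had differences between -0.50 (Dnmt1) and 0.16 (Tet3) on the log2 scale, with adjusted p-values up to 0.94. Over all 11497 genes tested in this comparison 9.57% passed, 8.61% higher and 0.957% lower in SS mice, so 1 of 8 is near the background. The median difference was -0.16 over the 8 genes and -0.14 over all genes. None of the 8 passed among labelled males alone, where 0% of all genes did, or among labelled females alone, where 4.95% did. With so few mice per slide, a gene that did not pass there is not shown to be without a difference. At an unadjusted p under 0.05 the counts were 2 of 8 among labelled males (22.9% of all genes) and 1 of 8 among labelled females (17.4%). The difference between the slides passed for 0 of 8 genes (0.0609% of all genes), and 0 of 8 had an unadjusted p under 0.05 there (9.61%). Each mouse is 1 sample, and p-values weigh a difference against the spread between mice. For the comparisons within a slide that spread was 1 estimate per probe, shared by the 4 groups of both slides.

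**Figure D1:**
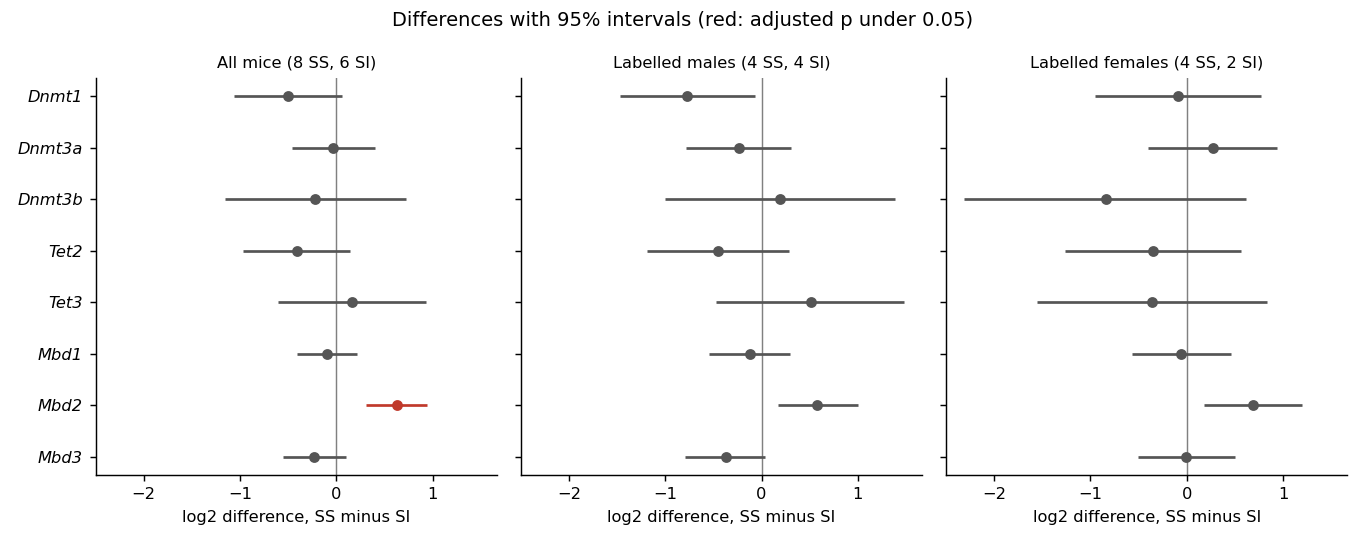
Log2 difference SS minus SI of the brightest tested probe of each gene (points) with its 95% confidence interval (bars), in all mice (8 SS, 6 SI), labelled males (4 SS, 4 SI) and labelled females (4 SS, 2 SI). Mbd2 in all mice, in red, is the only point with an adjusted p under 0.05, and its intervals lie above 0 in all 3 panels.

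Among the writers, Dnmt1 is the maintenance methyltransferase. On the slide of the labelled males its scaled log2 signal was -4.33, -4.38, -3.56 and -3.65 in SS mice 1, 2, 3 and 01b, against -3.13, -3.62, -3.02 and -3.08 in SI mice 4, 5, 6 and 7. The lowest values were those of SS mice 1 and 2, and the groups overlapped through SI mouse 5. The difference was -0.77 ± 0.33 (SE; 95% interval -1.47 to -0.07; limma adjusted p = 0.179).

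On the slide of the labelled females Dnmt1 was -3.65, -3.67, -3.63 and -2.49 in SS mice 20, 21, 22 and 23, against -3.73 and -2.80 in SI mice 27 and 28. SS mouse 23 stood above the rest of its group, which lay within a narrow range, and SI mouse 27 held the lowest value of the slide while SI mouse 28 lay below SS mouse 23. The difference there was -0.09 ± 0.40 (SE), and in all mice it was -0.50 ± 0.26 (95% interval -1.06 to 0.06; adjusted p = 0.304). The difference between the slides was 0.68 (95% interval -0.43 to 1.79; adjusted p = 0.587).

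Dnmt3a, a de novo methyltransferase whose loss in blood stem cells favours self-renewal, showed a difference of -0.03 ± 0.20 (SE) in all mice, with a 95% interval of -0.46 to 0.40. It averaged -3.66 ± 0.29 in SS and -3.43 ± 0.45 in SI labelled males (SD, n = 4 each). In labelled females it averaged -3.83 ± 0.25 in SS mice (SD, n = 4) and -4.09 ± 0.34 in SI mice (SD, n = 2). The groups overlapped on both slides.

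Dnmt3b, the other de novo enzyme, could not be given a single value because its probes disagreed. Over the 14 arrays, with the mean of each slide taken off, the tested probes correlated at -0.39. By the brightest probe, well above background on 14 of 14 arrays, the difference in all mice was -0.22 ± 0.44 (SE; adjusted p = 0.799). By the other probe, well above background on 13 of 14, it was -0.70 ± 0.30 (95% interval -1.35 to -0.06; adjusted p = 0.202).

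The gap between the Dnmt3b probes was widest among labelled males. The other probe gave -5.48, -5.47, -3.82 and -4.89 in SS mice 1, 2, 3 and 01b, against -4.18, -4.05, -3.29 and -3.46 in SI mice 4, 5, 6 and 7. Mice 1, 2 and 01b of the SS group lay below every SI mouse, and SS mouse 3 lay inside the SI range. The difference was -1.17 ± 0.35 (adjusted p = 0.0886), whereas the brightest probe gave 0.19 ± 0.56. On the brightest probe SI mouse 4 read -1.10, and SI mice 5, 6 and 7 read -3.23, -3.18 and -4.04, so the spread of that group came largely from 1 array. The untested Dnmt3b probe was well above background on 4 of 14 arrays, of which 3 were SI labelled males.

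**Figure D2:**
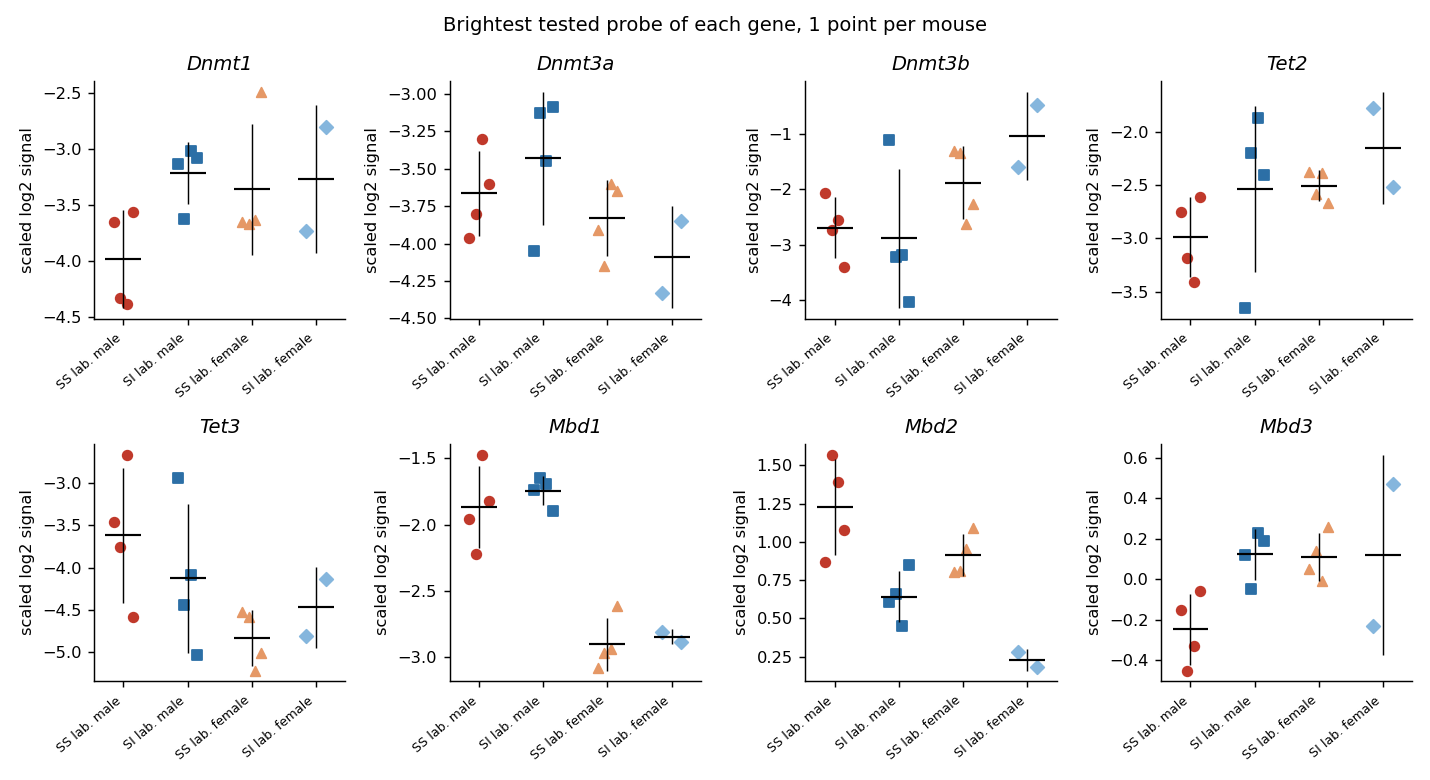
Scaled log2 signal of the brightest tested probe of 8 genes, 1 point per mouse, by group (SS and SI labelled males, SS and SI labelled females), with the group mean (horizontal bar) and SD (vertical bar). The axes differ between panels. Mbd2 is the gene whose SS points all lie above the SI points on both slides, and SI mouse 4 is the far point of the SI labelled males for Dnmt3b, Tet2 and Tet3.

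Among the erasers, Tet2 is a dioxygenase with a known role in blood stem cells. In labelled males it read -3.18, -3.41, -2.61 and -2.75 in SS mice 1, 2, 3 and 01b, against -3.65, -2.20, -1.87 and -2.41 in SI mice 4, 5, 6 and 7. SI mouse 4 held the lowest value of the slide and the other SI mice held the highest values. In labelled females it read -2.38, -2.58, -2.39 and -2.67 in SS mice 20, 21, 22 and 23, against -1.78 and -2.52 in SI mice 27 and 28. SI mouse 27 lay above the SS range and SI mouse 28 inside it.

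The Tet2 difference in all mice was -0.41 ± 0.26 (SE; 95% interval -0.97 to 0.14; adjusted p = 0.393), and the other probe, which correlated with it at 0.92, gave -0.31 ± 0.24. The result turned on SI mouse 4. Without that array the difference was -0.62 in all mice (adjusted p = 0.0462) and -0.82 in labelled males (adjusted p = 0.0252). Without it 20.8% of all genes passed in all mice (10.8% higher and 9.99% lower in SS mice) and 44.2% passed in labelled males (16.9% higher and 27.4% lower), so a pass for Tet2 is shared with a large part of the array. By count, 2 of 8 genes then passed in each comparison, Tet2 as lower and Mbd2 as higher.

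Tet3, the TET enzyme best known from the zygote and the brain, gave 0.16 ± 0.36 (SE; 95% interval -0.61 to 0.93) in all mice and 0.35 ± 0.28 by its other probe. In labelled males it ranged from -4.59 to -2.66 in SS mice and from -5.04 to -2.94 in SI mice. In labelled females it ranged from -5.22 to -4.53 in SS mice and from -4.81 to -4.13 in SI mice. The groups overlapped on both slides. The other probe was well above background on 2 of 4 SS and 0 of 2 SI labelled female arrays, and its untested probe on 0 of 14.

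Among the readers, Mbd2 is the NuRD subunit that binds methylated CpG pairs. In labelled males it read 1.57, 1.39, 1.08 and 0.87 in SS mice 1, 2, 3 and 01b, against 0.61, 0.66, 0.45 and 0.85 in SI mice 4, 5, 6 and 7. In labelled females it read 0.80, 0.81, 0.95 and 1.09 in SS mice 20, 21, 22 and 23, against 0.28 and 0.18 in SI mice 27 and 28. Each SS mouse lay above each SI mouse of its slide, although SS mouse 01b and SI mouse 7 differed by little. Over all genes, 6.31% had SS arrays above SI arrays on both slides.

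The other Mbd2 probe showed the same order. It read 0.62, 0.34, -0.07 and 0.02 in SS labelled males 1, 2, 3 and 01b, against -0.31, -0.41, -0.69 and -0.62 in SI labelled males 4, 5, 6 and 7. It read -0.19, -0.07, -0.23 and 0.05 in SS labelled females 20, 21, 22 and 23, against -0.80 and -0.59 in SI labelled females 27 and 28. The groups did not overlap on either slide, and the probes correlated at 0.90 over the 14 arrays with slide means taken off.

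In all mice the Mbd2 difference was 0.63 ± 0.15 (SE; 95% interval 0.31 to 0.94; limma adjusted p = 0.0144) by the brightest probe and 0.67 ± 0.15 (95% interval 0.35 to 0.99; adjusted p = 0.0104) by the other. It was 0.58 ± 0.19 among labelled males (adjusted p = 0.106) and 0.69 ± 0.24 among labelled females (adjusted p = 0.137). The difference between the slides was 0.11, with a 95% interval of -0.55 to 0.76 (adjusted p = 0.875). Scaled by the 75th percentile of all non-control probes the rise was 0.58 and did not pass (adjusted p = 0.149), and in the authors' deposited table, whose normalization is unstated in the labels, it was 0.36 (adjusted p = 0.0758). Nor did the brightest probe pass with no filter on dim probes (adjusted p = 0.124) or without the slide term (adjusted p = 0.079).

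Platelet markers differed between the groups on the same arrays. All 13 platelet genes listed, among them Pf4, Gp9 and Itga2b, were tested and rose in SS mice (8.61% of all genes rose). The median difference was 1.58, and all 13 were well above background on all arrays. Their mean centred level ranged from 0.32 to 1.2 in SS and from -1.85 to 0.22 in SI labelled males, and from 0.42 to 0.85 in SS and from -1.43 to -1.17 in SI labelled females. The groups did not overlap on either slide, as for Mbd2 (6.31% of all genes had SS arrays above SI arrays on both slides). Neutrophil markers also stood apart on both slides, but in opposite directions: they lay between -0.05 and 0.37 in SS and between -1.2 and -0.17 in SI labelled males, and between -1.09 and -0.62 in SS and between 1.62 and 2.57 in SI labelled females. Among labelled females NK cell markers (-0.21 to 0.69 in SS, 1.41 to 1.59 in SI) and erythroid markers (-1.13 to -0.10 in SS, 0.44 to 1.26 in SI) did not overlap either. On that slide 4 SS arrays stand against 2 SI arrays, so a lack of overlap is easily reached. No share over all genes is given for that slide alone, and the lack of overlap there is a description. Markers of T cells, B cells and monocytes overlapped between SS and SI mice on both slides. No tested marker of neutrophils, NK cells, erythroid cells, T cells, B cells or monocytes passed in all mice. The part of these markers in the Mbd2 difference was not tested. In a mixture of cells, fewer cells of a type and less RNA per cell cannot be told apart.

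**Figure D3:**
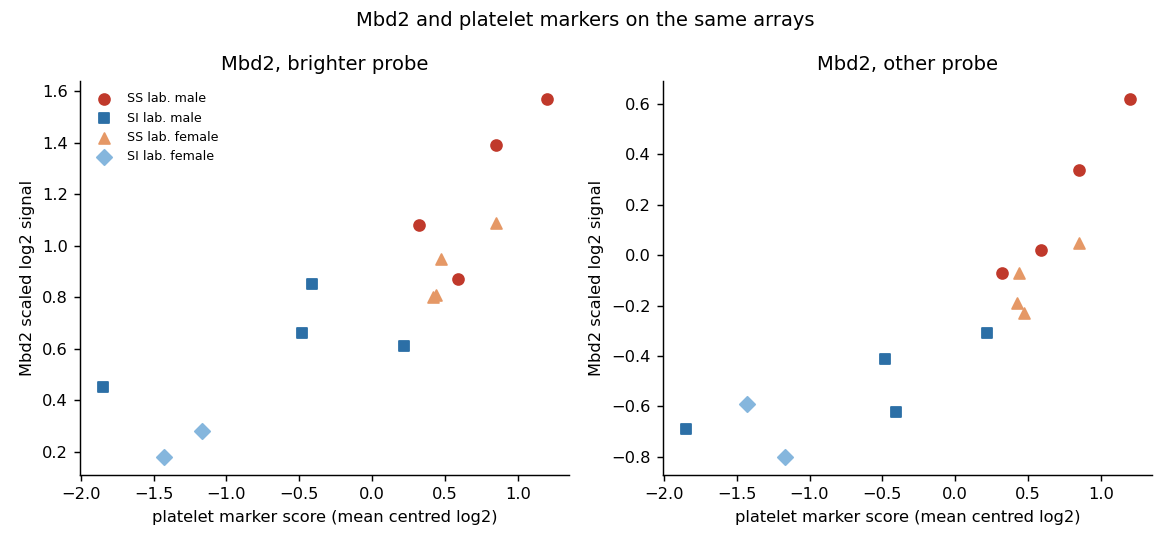
Scaled log2 signal of Mbd2 (vertical axes; brightest probe left, other probe right) against the mean centred log2 level of 13 platelet markers (horizontal axes), 1 point per mouse. SS mice have platelet scores of 0.32 to 1.2 and SI mice of -1.85 to 0.22. Within each slide the SS mice also lie higher than the SI mice, while across slides SI labelled male mouse 7 (0.85, brightest probe) lies above SS labelled female mice 20 (0.80) and 21 (0.81).

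Mbd3, the alternative NuRD subunit, had a difference of -0.23 ± 0.15 (SE; 95% interval -0.55 to 0.10; adjusted p = 0.421) in all mice. In labelled males it read -0.45, -0.33, -0.06 and -0.15 in SS mice 1, 2, 3 and 01b, against 0.12, -0.05, 0.23 and 0.19 in SI mice 4, 5, 6 and 7. The SS values were below the SI values without overlap, by a narrow margin between SS mouse 3 and SI mouse 5. Over all genes, 1.78% were arranged this way on that slide. The difference was -0.37 ± 0.19 (adjusted p = 0.249), and it was 0.00 ± 0.26 by the other probe. In labelled females it ranged from -0.01 to 0.26 in SS mice and from -0.23 to 0.47 in SI mice, so that the SS values lay inside the SI range.

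Mbd1, which binds both methylated and unmethylated CpG pairs through separate domains, differed by -0.10 ± 0.15 (SE; 95% interval -0.41 to 0.22; adjusted p = 0.731) in all mice. Its level differed between the slides. It averaged -1.87 ± 0.31 in SS and -1.74 ± 0.11 in SI labelled males (SD, n = 4 each), against -2.91 ± 0.20 in SS labelled females (SD, n = 4) and -2.85 ± 0.05 in SI labelled females (SD, n = 2). No labelled female array reached the lowest labelled male value of -2.22. Slide and sex label cannot be told apart, so no test was made. The other Mbd1 probe, well above background on 6 of 14 arrays, gave -0.23 ± 0.24 and correlated with the brightest at 0.12.

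How the genes varied among mice was compared after the mean of each slide was taken off, over 14 arrays that share scaling and group differences, so the correlations are descriptions. By their brightest probes, Dnmt1 and Mbd3 varied most alike within the set (Pearson r = 0.89), followed by Dnmt3b and Tet3 (0.85). Dnmt3a and Dnmt3b ran most opposite (-0.69), and Tet2 and Tet3 nearly so (-0.66). The Dnmt3b values belong to its brightest probe alone, which correlated with its other tested probe at -0.39. The brightest probes of Dnmt3b and Tet3 also had a larger SD after scaling than before it, as given below. The part of scaling in these correlations was not tested. The promoters of the most alike pair are shown with each CG pair in capitals, as RefSeq windows of 250 bases before to 50 bases after a gene start on GRCm38.p6. The CG pair was searched as the letters CG, which read the same on both strands.
Dnmt1, chr9:20952574-20952873, minus strand: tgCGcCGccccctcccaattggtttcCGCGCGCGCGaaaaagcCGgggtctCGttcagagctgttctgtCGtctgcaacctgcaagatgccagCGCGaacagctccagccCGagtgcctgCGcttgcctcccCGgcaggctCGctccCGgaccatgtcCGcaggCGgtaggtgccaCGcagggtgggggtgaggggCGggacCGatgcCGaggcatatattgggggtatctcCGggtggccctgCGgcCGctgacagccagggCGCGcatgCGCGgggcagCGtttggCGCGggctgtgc
Mbd3, chr10:80399482-80399781, minus strand: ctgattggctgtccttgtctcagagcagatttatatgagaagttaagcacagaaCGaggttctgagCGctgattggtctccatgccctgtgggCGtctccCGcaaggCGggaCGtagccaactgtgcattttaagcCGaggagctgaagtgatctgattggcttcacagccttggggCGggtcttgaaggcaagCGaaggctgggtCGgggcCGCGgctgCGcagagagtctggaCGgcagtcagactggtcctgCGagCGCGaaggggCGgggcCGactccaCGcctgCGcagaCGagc
The Dnmt1 window holds 33 CG pairs and the Mbd3 window 22. As many or more are held by 8.56% and 23.1% of the 32851 windows in the table, whose median is 7. Other annotated starts of Dnmt1 hold 12 and 2 CG pairs.

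Over the whole array, the genes most like each member were named by the same correlation over 14 arrays. For Mbd2 they were Gpd1 (0.974), a cytosolic glycerol phosphate dehydrogenase, Erbin (0.971) and Casp6 (0.969), and all 3 rose in SS mice. Group differences stayed in the correlated values, so a rise shared with Mbd2 follows largely from how these 3 were picked. For Dnmt1 they were Pitrm1 (0.917), Mbd3 (0.892) and Hypk (0.875), for Mbd3 they were Sit1 (0.934), Zfp511 (0.91) and St14 (0.907), and for Tet2 they were Pigx (0.977), Ppp2r3c (0.961) and Tnni2 (0.961). None of these passed between SS and SI. For Dnmt3a they were Rnf113a2 (0.894), Hdac6 (0.857) and Cenpt (0.841), and for Mbd1, whose likenesses were the lowest of the 8, Zup1 (0.806), Ankfy1 (0.777) and Zfp518a (0.771). By its brightest probe Dnmt3b was most like Zbtb46 (0.989), Snx22 (0.983) and Plcg1 (0.982), and Tet3 most like Myo18b (0.977), Zglp1 (0.969) and Ppfia3 (0.969).

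The brightest probes of Dnmt3b and Tet3 differed from those of the rest of the set in how their signal followed array brightness. Before scaling, the brightest Dnmt3b probe varied within slides with an SD of 0.39, and after scaling with an SD of 0.85; for Tet3 the values were 0.33 and 0.68. The other Tet3 probe also had the larger SD after scaling (0.41 before, 0.54 after), whereas the other Dnmt3b probe had the smaller one (1.07 before, 0.67 after). For the brightest probes of the other 6 genes the SD was smaller after scaling, 0.38 against 0.70 before it for Mbd2. An SD that grew with scaling was found for 22% of 11497 genes. On SI labelled male mice 4 and 7 the array percentile was 8.53 and 10.39, while unscaled Dnmt3b was 7.43 and 6.36. The dim array thus carried the higher unscaled Dnmt3b signal. The part of array brightness in these Dnmt3b and Tet3 values was not tested.

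**Figure D4:**
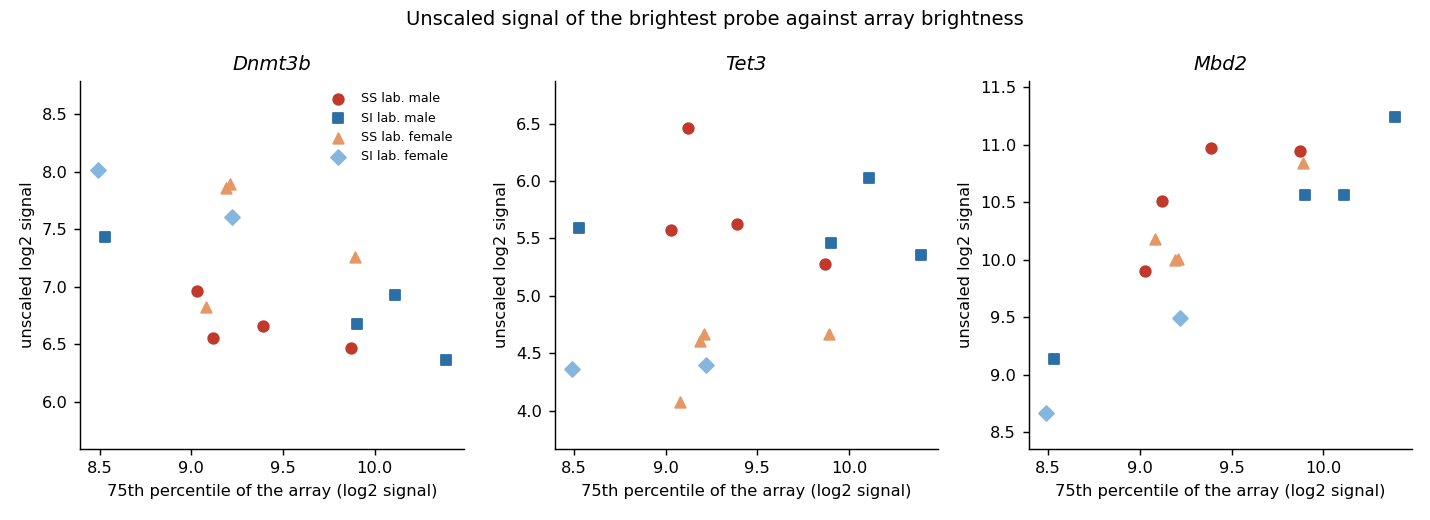
Unscaled log2 signal of the brightest probe of Dnmt3b, Tet3 and Mbd2 against the log2 75th percentile of each array, 1 point per mouse. Mbd2 read 8.67 on the dimmest array (SI labelled female mouse 28) and 11.24 on the brightest (SI labelled male mouse 7). Dnmt3b read 8.02 on the dimmest and 6.36 on the brightest. These arrays lie on different slides, and Dnmt3b ran from 6.82 to 8.02 in labelled females and from 6.36 to 7.43 in labelled males.

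The wider machinery was followed in 74 genes, listed by role with earlier results of these data known, of which 63 were tested. In all mice 0 of 63 passed (9.57% of all genes), 6 had an unadjusted p under 0.05 (23.9%), and the median was -0.18. In labelled males 0 of 63 passed (0% of all genes), 7 were under an unadjusted 0.05 (22.9%), and the median was -0.32, against -0.15 over all genes. In labelled females 1 of 63 passed (4.95% of all genes), 3 were under an unadjusted 0.05 (17.4%), and the median was 0.00, against -0.07 over all genes. None of these counts was above the share over all genes, and counts this small are read no further.

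The gene that passed in labelled females was Hells, a chromatin remodeller that helps Dnmt1 maintain methylation. It read -6.61, -6.77, -6.56 and -6.40 in SS mice 20, 21, 22 and 23, against -5.17 and -5.08 in SI mice 27 and 28. It was not well above background on any SS array of that slide and was so on 1 of 2 SI arrays, so no fold is given for the pass (limma adjusted p = 0.0284). The pass was lost when any 1 of the 6 arrays of that slide was left out, with adjusted p-values from 0.059 to 0.134. In labelled males the difference was 0.67 ± 0.25 (adjusted p = 0.138), and the difference between the slides did not pass (adjusted p = 0.0875). Markers of dividing cells, 9 of 12 tested and none passing, had mean centred levels of -0.36 to -0.14 in SS and -0.42 to 0.18 in SI labelled females, and of -0.08 to 0.53 in SS and -0.34 to 0.71 in SI labelled males. These ranges overlapped on both slides. The neutrophil markers given above were higher in SS labelled males and lower in SS labelled females than in SI mice of that slide. Their groups did not overlap on either slide. Hells differed in the same directions, but its groups overlapped in labelled males, where SS mouse 1 read -5.44 and SI mouse 5 read -4.93. NK cell and erythroid markers were lower in SS labelled females. The part of these markers in the Hells difference was not tested.

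None of the groups by role held a gene that passed in all mice. The NuRD subunits, 10 of 11 tested, had differences from -0.51 (Mta3) to 0.00 and a median of -0.31 (all genes -0.14), beside 0.63 for Mbd2 and -0.23 for Mbd3. The methyl donor cycle, 10 of 11 tested, held the smallest adjusted p of the machinery in all mice: Mthfd1, a folate enzyme, at 0.57 ± 0.18 (adjusted p = 0.0746), beside Ahcy, which clears S-adenosylhomocysteine, at 0.60 ± 0.24 (adjusted p = 0.173). Repair enzymes and Gadd45 genes that act after oxidation, 10 of 13 tested, had a median of -0.25. Among TET partners, 6 of 9 tested, Ogt, which attaches N-acetylglucosamine and binds TET proteins, was -1.11 ± 0.22 in labelled males (adjusted p = 0.085) and 0.35 in labelled females, and the difference between the slides did not pass (adjusted p = 0.192). Maintenance partners of Dnmt1, 6 of 6 tested, had a median of -0.18, and the other methylation readers, 7 of 7, had a median of -0.09.

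**Figure D5:**
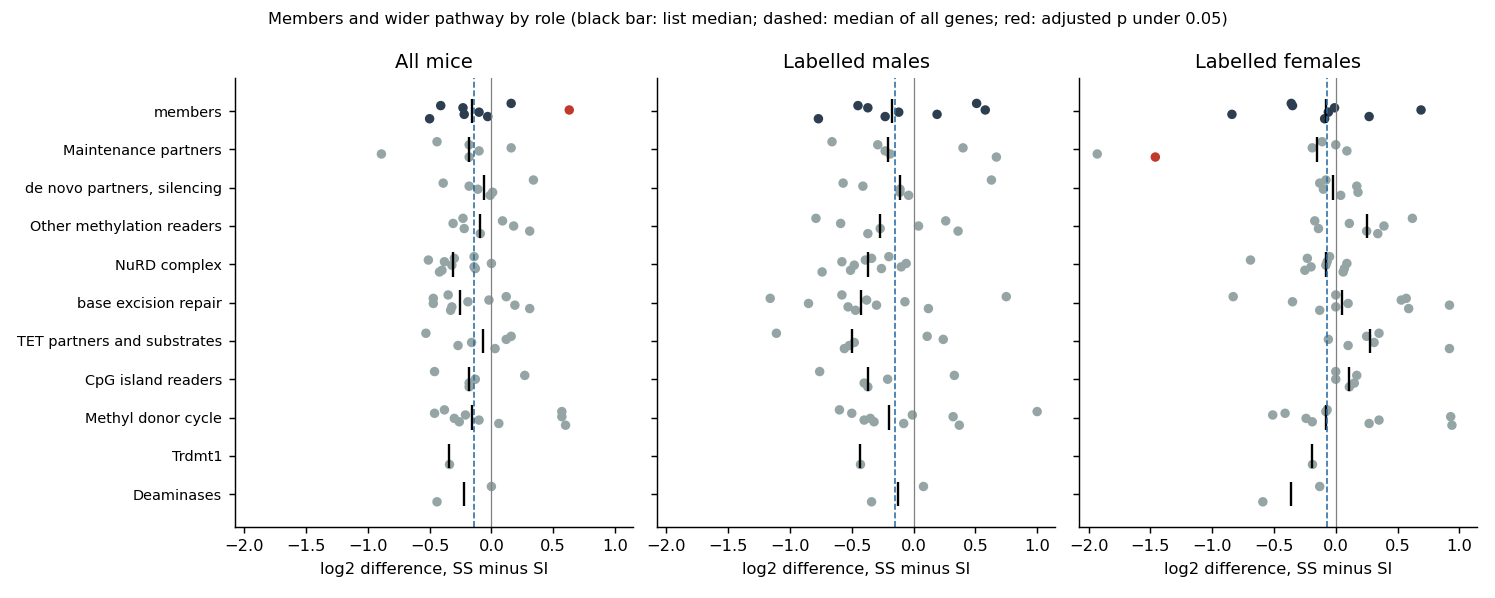
Log2 difference SS minus SI of each gene, by role, in all mice, labelled males and labelled females. Black bars are list medians, dashed lines the median of all genes (-0.14, -0.15 and -0.07), and red points have an adjusted p under 0.05: Mbd2 in all mice and Hells in labelled females.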

How the data were processed

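Blood RNA of 14 mice was measured on arrays. Per the file headers, the deposited intensities are processed signals from the scanner software (Agilent Feature Extraction, version 10.7.3.1), corrected for background and spatial trend but not scaled between arrays. The submitters' processing notes name version 9.1. The flags per spot (scores for control type, well above background and outlier) are as deposited. The authors also deposited a log2 value table of 27990 probes, with no statement of its normalization in the labels; it served as an alternative.

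Control spots were left out, and outlier spots were left out where the probe had another spot. Spots of a probe were averaged as log2. Each member probe had 1 spot, so an outlier flag removed no member value. Each array was scaled by the 75th percentile of probes well above background on all 14 arrays. A probe entered the test when 6 or more of 14 arrays measured it well above background. Fits used limma 3.58.1 in R 4.3.3, with data.table (version 1.17.8). The SS minus SI difference was fitted over all mice with slide as a term, and within each slide, and between slides, in a fit of 4 groups. Symbols came from the RefSeq table through transcript identifiers; a gene is represented by its brightest tested probe. Groups came from the labels. The genes, the lists and the rule for naming genes (all 9 members, any listed gene that passed, and the 3 genes most alike in each case) were chosen with earlier results of these data known. The code was tested on simulated data, where 49% of probes given a log2 change of 1 were recovered in all mice. In labelled males 21% of them were recovered, and in labelled females 4%. The number of arrays limits the precision. Alternatives were the scaling (3), normexp with an offset of 50, the deposited table, the filter (2), the slide term, each slide alone and leaving out each array.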

Additional observations from a re-analysis of the deposited data

Results flagged for a closer look

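Dnmt1 in SS labelled females held 1 array far from the others: mouse 23 read -2.49 and the rest of the group read between -3.67 and -3.63. The gap was 0.963 of the range of the group, above the value that marks a far sample at the 95% level among 4. It was the only one found among 42 pairs of a probe and a group examined, where chance gives about 1 in 20. On the same slide the SI mice read -3.73 and -2.80, so the far value lay above both.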

How the results depend on the processing

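Mbd2 rose in all mice with each array left out (0.56 to 0.70, adjusted p 0.0105 to 0.0491). It kept its direction but did not pass with the percentile of all probes (0.58, adjusted p = 0.149; other probe 0.63, 0.057), in the deposited table (0.36, 0.0758; the other probe passed, 0.51, 0.0247), with no filter (0.63, 0.124; other 0.67, 0.0899) and without the slide term (0.57, 0.079; the other probe passed). Under each of these 4 settings 0 of the 8 genes passed in all mice, and 1 to 2 passed with an array left out. In labelled males 0 to 2 passed with an array left out. Over all probes, 1918 passed in all mice, against 1245 with normexp, 1125 with no filter, 1147 without the slide term and 1488 to 3864 with an array left out, the highest without SI mouse 4. In labelled males 0 passed, against 2 with the percentile of all probes, 1 with median scaling, 2 with quantile normalization, 174 in the deposited table and 0 to 9424 with an array left out, again highest without SI mouse 4. In labelled females 962 passed (766 higher, 196 lower), against 414 with normexp (286 higher, 128 lower), 461 in the deposited table, 52 with no filter (18 higher, 34 lower), 1706 with that slide alone and 43 (without SS mouse 23) to 1919 (without SI mouse 4) with an array left out. Between slides 11 passed (1 higher, 10 lower), against 17 with quantile normalization (4 higher, 13 lower), 36 in the deposited table (20 higher, 16 lower) and 1 to 664 with an array left out. The cause was not tested.

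Differences near 0 changed sign. In all mice Dnmt3a was 0.02 with median scaling and -0.16 to 0.05 with an array left out, the other Mbd3 probe was -0.01 with quantile normalization and -0.06 to 0.18, Mbd1 was 0.06 in the deposited table, and with an array left out Dnmt3b ran from -0.48 to 0.07 and Tet3 from -0.05 to 0.36. In labelled males the deposited table gave -0.16 for Dnmt3b (-0.19 to 0.79 with an array left out) and 0.10 for Mbd1. In labelled females the percentile of all probes gave 0.07 for Dnmt1, 0.11 for Mbd1 and 0.15 for Mbd3, quantile normalization gave 0.03 for Dnmt1 and 0.05 for Mbd1, median scaling gave 0.01 for Mbd3 and normexp gave -0.08 for Dnmt3a; with an array left out Dnmt1 ran from -0.56 to 0.38, Tet2 from -0.72 to 0.01, Mbd1 from -0.15 to 0.01 and Mbd3 from -0.36 to 0.34. None of these passed under any setting, apart from Tet2 without SI mouse 4 in the other comparisons. Hells kept its direction in labelled females but did not pass with quantile normalization, normexp, the deposited table or no filter. Of 243 single values under other settings 221 kept direction and side of the threshold, as did 403 of 434 with an array left out.

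The scaling moved the median of all tested probes, from 0.09 to -0.09 in labelled males and from -0.11 to 0.05 in labelled females with the percentile of all probes, so differences of that size have no settled sign. No paired analysis was possible because mouse numbers are not shared between groups. Dim probes limit Hells, Mbd1 (other probe) and Tet3 (other probe).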
